A study of Mus musculus with 2 samples.

Results

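Runx2 (ENSMUSG00000039153) is the gene of 1 transcription factor, RUNX2, and lies on the minus strand of mouse chromosome 17 from 44495987 to 44814797 (GRCm38, GENCODE M21), where it spans 318.811 kb. It is 1 of 21938 protein-coding genes on the nuclear chromosomes of this annotation. The locus described here is the gene with 100 kb on either side, chr17:44395987-44914797, which was divided into 2595 bins of 200 bp. A CG lies in 2033 of these bins, against 9177012 bins with a CG in the genome. The bounds of the locus were set by position and not by a methylation value, though the locus was chosen with earlier results of these data known.

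CG methylation was measured by whole-genome bisulfite sequencing (WGBS) in primary osteoblasts of 3-day-old C57BL/6 mice, cells that the study isolated from calvarial bone and cultured for 3 days. The WT library came from wild type mice, and the TCKO library from mice that carry Prx1-Cre with the floxed alleles Tet1fl/fl, Tet2fl/fl and Tet3fl/fl, whose 3 Tet genes are deleted in the cells in which Prx1-Cre, a Cre of limb and skull mesenchyme, has been active. Cells of the cultures that never expressed this Cre keep their Tet genes, and whether the WT mice carried Cre or floxed alleles is not stated in the labels. There was 1 library per genotype, so no difference has a replicate check: a test here sets one library against the other, and says nothing of the spread between mice. Bisulfite sequencing reads 5mC and 5hmC alike.

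RUNX2 is the master transcription factor of the osteoblast lineage and binds DNA through its Runt domain together with CBFB. Its gene is transcribed from a pair of promoters, the distal P1, which gives the bone isoform with its own first exon, and the proximal P2, which gives a more widely used isoform. TET enzymes oxidise 5mC and so start the removal of the mark, and active promoters and enhancers are usually low in CG methylation in the cells that use them.

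The level of a region is the share of methylated (C) calls among all (C + T) calls of its CG cytosines, pooled over both strands. Over the locus 66017 calls were made in WT and 57881 in TCKO, or 6.39 and 5.61 calls per CG cytosine, and the ratio of the calls was 0.877. Genome-wide the WT library had 70.2% CG methylation and the TCKO library 76.3%. In the targeted genes, runs of windows were chosen because the TCKO library had few calls there: Tet1 had 755 calls in WT and 70 in TCKO, Tet2 had 122 and 13, and Tet3 had 133 and 9. Intervals in the text are 95% Wilson intervals, or Newcombe intervals for differences. Neighbouring CGs share reads, and duplicate reads may have been kept, so both intervals and p-values describe counting error alone.

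The sequences below show the places on which the results turn. They were read from GRCm38, 5′ to 3′ on the strand of Runx2, with each CG in capitals. They are bins outside the exons that differed most between the libraries, 4 with the largest differences and the one of intron 4.
Intron 1 near P1, chr17:44813601-44813800: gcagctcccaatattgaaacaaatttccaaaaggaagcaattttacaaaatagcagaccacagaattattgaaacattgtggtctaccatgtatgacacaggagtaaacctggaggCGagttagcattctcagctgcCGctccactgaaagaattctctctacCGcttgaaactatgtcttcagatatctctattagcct
Intron 5, P2-distal, chr17:44677801-44678000: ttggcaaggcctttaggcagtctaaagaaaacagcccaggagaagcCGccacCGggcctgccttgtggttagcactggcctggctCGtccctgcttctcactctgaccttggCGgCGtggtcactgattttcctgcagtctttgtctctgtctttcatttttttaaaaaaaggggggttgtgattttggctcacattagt
Intron 5 near the start of Runx2os2, chr17:44709601-44709800: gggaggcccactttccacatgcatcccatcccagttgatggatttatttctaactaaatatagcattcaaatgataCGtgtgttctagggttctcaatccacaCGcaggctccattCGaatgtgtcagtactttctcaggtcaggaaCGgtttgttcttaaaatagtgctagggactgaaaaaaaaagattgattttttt
Intron 1, CT-rich repeat, chr17:44804601-44804800: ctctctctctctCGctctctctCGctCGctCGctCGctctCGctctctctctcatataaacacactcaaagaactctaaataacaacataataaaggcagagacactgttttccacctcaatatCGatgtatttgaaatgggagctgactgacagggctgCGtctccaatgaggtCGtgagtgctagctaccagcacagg
Intron 4, chr17:44722401-44722600: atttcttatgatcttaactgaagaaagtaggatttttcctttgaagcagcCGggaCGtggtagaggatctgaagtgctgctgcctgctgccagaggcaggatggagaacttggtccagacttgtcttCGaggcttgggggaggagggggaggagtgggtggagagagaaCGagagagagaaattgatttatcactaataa
The 5′ end of the P1 transcript holds strings that match the Runt motif, TGTGGTT or its reverse AACCACA. They lie in 3 places within 322 bp of the transcription start site (TSS) and are shown with the motif in capitals.
92 bp downstream of P1, chr17:44814691-44814719: gtgaggtcacaAACCACAtgattctgtct
199 bp downstream of P1, chr17:44814584-44814612: cacaaacAACCACAgAACCACAagtgcgg
322 bp downstream of P1, chr17:44814461-44814489: gtgagtgctctAACCACAgtccatgcagg
Of 32851 RefSeq promoter windows of 300 bp (GRCm38), 5.27% held the Runt string at least once, and 0.00913% held it at least 3 times, as the RefSeq window of Runx2 did. A match of letters is not a binding site. The first and the last of these pieces hold no CG. The middle one holds 1 CG, with 0 of 20 calls methylated in WT and 3 of 16 in TCKO.

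Across the locus, 45181 of 66017 calls were methylated in WT, a level of 68.4%, and 48135 of 57881 in TCKO, or 83.2%. In 10 kb windows, TCKO was higher in 51 of 51, by a median of 12.7 percentage points. In some the interval of the difference spanned both signs. Examples are the window of the P2 TSS (-3.07 to 3.26 points) and that centred 85 kb upstream of P1 (-1.39 to 4.86). The share over 10 kb windows of the genome is not given here, and TCKO was higher genome-wide as well (76.3% against 70.2%). WT levels varied along the locus with an SD of 13.8 points, from 29.8% to 86.4%. TCKO levels exceeded 70% in 49 of the windows, from 73.6% to 90.9%, whereas WT levels did so in 30. The 2 windows in which TCKO stayed lower lie around P2. The one that holds the P2 TSS had 31.2% in WT and 31.3% in TCKO, and the next, over exon 3, intron 3 and most of exon 4, had 31.1% and 49.8%. Over all 51 windows the SD along the locus was 13.8 points in WT and 9.84 points in TCKO. Without these 2 windows it was 11.7 and 4.15 points. They were left out for their low TCKO level, which by itself lowers the TCKO SD. The largest difference, 43.7 points, lay in the 10 kb that follow the P1 TSS, with 29.8% in WT and 73.6% in TCKO. The window centred 95 kb downstream of P1, over intron 4 and exon 5, differed by 35.2 points, from 46.3% to 81.5%.

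**Figure D1:**
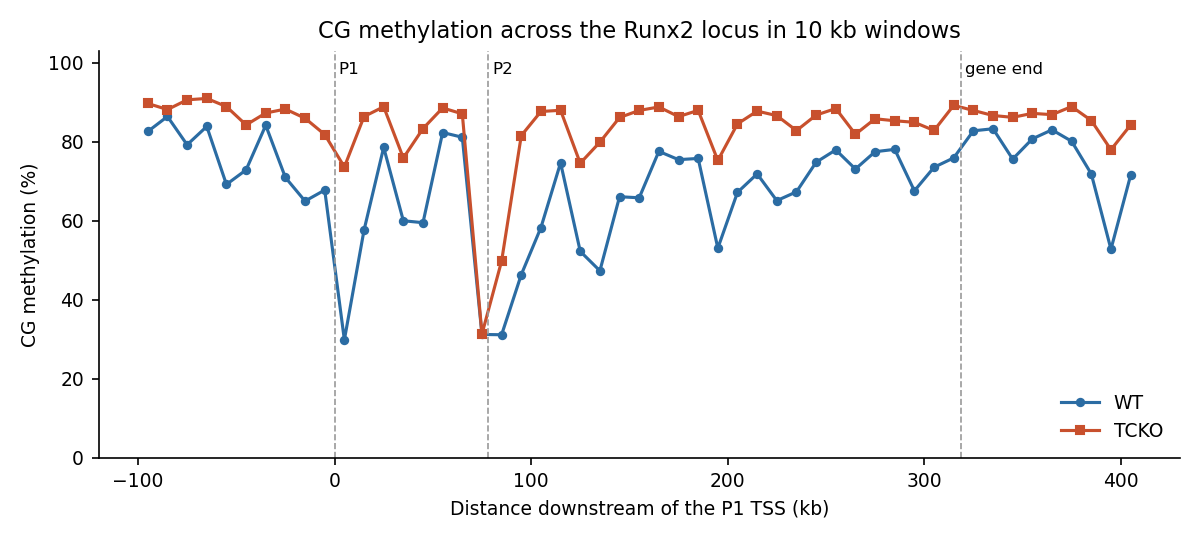
CG methylation (%, y axis) of the WT (circles) and TCKO (squares) libraries in 10 kb windows, by distance from the P1 TSS in kb (x axis, downstream is positive, so the 5′ end of Runx2 is on the left). Dashed lines mark P1, P2 and the 3′ end of the gene. TCKO lies above 70% in 49 of 51 windows and meets the WT line at P2.

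The body of Runx2 from TSS to gene end had 64.9% CG methylation in WT (64.4% to 65.4%, 42588 calls) and 81.3% in TCKO (80.9% to 81.7%, 37467 calls). The difference of 16.4 points (15.8 to 17) passed the 2-sided Fisher exact test, adjusted by Benjamini-Hochberg across 20808 gene bodies, as did 66.6% of all gene bodies in the same direction, so the call by itself does not set Runx2 apart. The median gene body differed by 5.72 points, and 97.6% of gene bodies differed by less than Runx2. Among the 2492 genes longer than 100 kb, the median was 73.3% in WT and 81.9% in TCKO, and 99.5% differed by less. Of these long genes, 6.86% had a lower WT level than Runx2 and 44.6% had a lower TCKO level. The gene body of Runx2 was thus among the less methylated of the long genes in the WT library, and near their middle in the TCKO library.

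The flanks differed by less than the gene. The 100 kb upstream of P1 had 75.6% in WT and 87.5% in TCKO, a difference of 11.9 points (10.9 to 12.9, Fisher exact test, p = 1.06e-116). The 100 kb downstream of the gene had 74.1% and 85.8%, 11.7 points apart (10.6 to 12.7, Fisher exact test, p = 6.12e-101). Within the gene, the part between the promoter windows of P1 and P2 went from 67.4% to 84.5%, and the part from P2 to the end of exon 9 from 62.0% to 82.3%. The 3′ stretch of 108.014 kb beyond exon 9, which is reached only by a transcript annotated for nonsense-mediated decay, went from 72.9% to 85.3%. The differences in these stretches were 17.1, 20.2 and 12.4 points.

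The 2 promoters of Runx2 behaved differently. P1 has its TSS at position 44814797 and P2 at 44736648, 78.149 kb downstream. The 4 kb centred on the P1 TSS hold 36 CGs, with 0.243 of the CGs expected from base composition, and the nearest CG upstream lies 446 bp from the TSS. The same window at P2 holds 245 CGs, with 0.727 of those expected, and so has the composition of a CpG island. At P1, 112 of 689 calls were methylated in WT (16.3%, 13.7% to 19.2%) and 249 of 537 in TCKO (46.4%, 42.2% to 50.6%). The difference of 30.1 points (25 to 35.1) passed the Fisher exact test at an adjusted p of 4.94e-28 over 54273 TSS windows, of which 41.7% were called higher in TCKO and 2.65% lower. Of these windows 99.3% had a smaller difference, against a median of 5.19 points. At P2, 6 of 971 calls were methylated in WT (0.618%) and 11 of 1006 in TCKO (1.09%). The difference of 0.476 points did not pass (interval -0.394 to 1.39, Fisher exact test, adjusted p = 0.452). In these 4 kb windows the interval, for counting error alone, reached up to 1.39 points at P2 and down to 25 points at P1. Other windows had other limits. With 1 kb on either side the P1 interval was 11 to 22.8 points, and over the 2 kb upstream of P2 it reached 2.71 points. P2 had only 1.98 and 2.05 calls per CG cytosine against 9.57 and 7.46 at P1.

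The gain at P1 was uneven within the window. The lowest levels lay in exon 1. The bin centred 297 bp downstream of the TSS had 1 of 86 calls methylated in WT and 5 of 66 in TCKO (1.16% and 7.58%). Exon 1 as a whole went from 2.10% (3 of 143 calls) to 13.1% (13 of 99 calls), a difference of 11.0 points (4.46 to 19.2, Fisher exact test, adjusted p = 0.0169 over all exons, of which 7.83% were called higher in TCKO). Just downstream of exon 1, the bin centred 1097 bp from the TSS had 3 of 49 calls methylated in WT and 48 of 52 in TCKO. This change from 6.12% (2.10% to 16.5%) to 92.3% (81.8% to 97%) was the largest of all bins called in the locus (Fisher exact test, adjusted p = 3.14e-17). Its 3 CGs, shown above, had 5.56% to 6.67% in WT and 88.2% to 100% in TCKO, over 15 to 18 calls each. They share reads and lie in a bin singled out by its difference, so they are no separate check. Bins nearer to the TSS differed less. The one centred 897 bp downstream went from 4.69% to 25.5%, and the one 503 bp upstream from 6.25% to 35.3%. Between 903 and 1503 bp upstream WT bins ran from 14.3% to 56.2%, and from 2103 bp to about 4 kb upstream most exceeded 66% in both libraries. The exception was the bin centred 3703 bp upstream, which went from 28.3% to 81.0% and was called (Fisher exact test, adjusted p = 4.12e-07). When the window was narrowed to 1 kb on either side, P1 went from 13.8% to 30.7%, 16.9 points apart, and 91.5% of the windows of that size had a smaller difference.

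At P2 an unmethylated core was shared by the libraries. No methylated call was found from 552 bp upstream to 2647 bp downstream of the TSS, chr17:44734001-44737200, in either library. This core of 3200 bp holds 442 CG cytosines, with 0 of 685 calls methylated in WT (upper Wilson limit 0.558%) and 0 of 795 in TCKO (upper limit 0.481%), which includes all calls on exon 2, intron 2 and exon 3. Both edges of the island were more methylated. On the downstream side, in intron 3, the bin centred 3148 bp from the TSS had 2.78% in WT and 7.69% in TCKO, and its neighbour centred 3348 bp from the TSS had 13.6% (6 of 44 calls) and 66.2% (43 of 65 calls, Fisher exact test, adjusted p = 4.55e-06). A farther bin, chr17:44732401-44732600, went from 28.6% to 73.2% (Fisher exact test, adjusted p = 0.0106). On the upstream side, in intron 1, the bin centred 2252 bp from the TSS had 22.5% (9 of 40 calls) in WT and 28.0% (14 of 50 calls) in TCKO. Its neighbours centred 2452, 2652 and 2852 bp from the TSS had 17.6%, 32.3% and 16.7% in WT and 36.8%, 59.4% and 50% in TCKO, over 12 to 32 calls each. No bin of that edge was called, which at this depth does not show that the edge was unchanged.

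**Figure D2:**
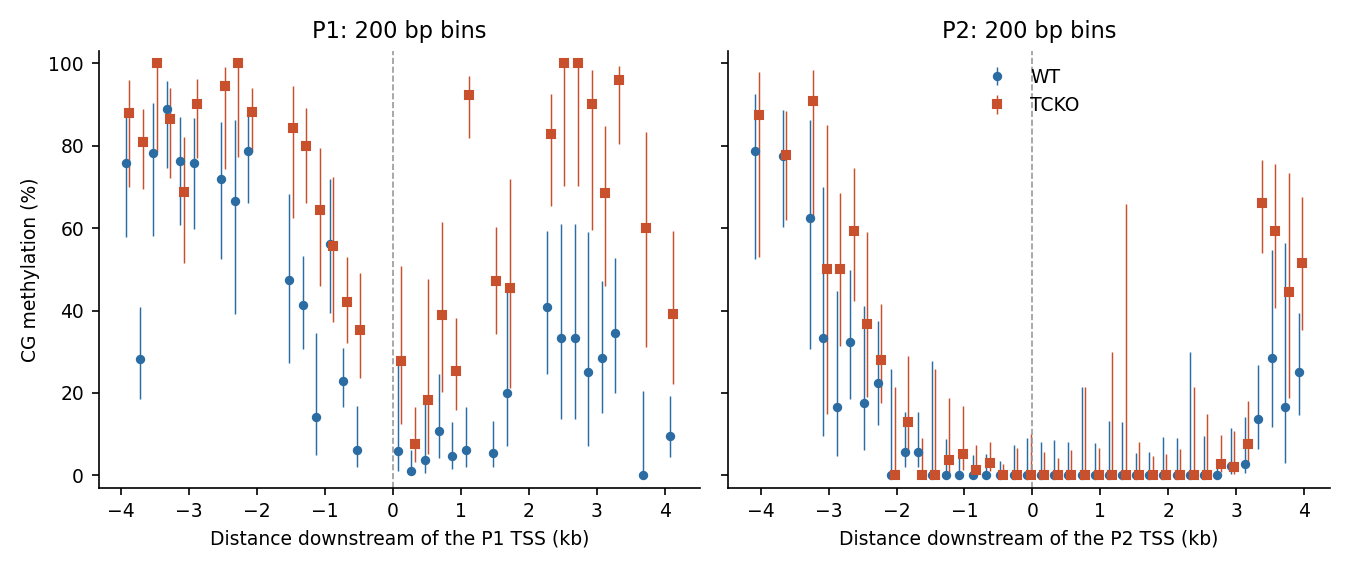
CG methylation (%, y axis) of 200 bp bins within about 4 kb of the TSS of P1 (left) and P2 (right), by distance from each TSS in kb (x axis, downstream is positive). Circles are the WT library and squares the TCKO library, with 95% Wilson intervals as bars. At P1 the TCKO bins lie above most WT bins, with the bin at 1.1 kb at 92.3% against 6.12%, and at P2 both libraries lie at or near 0% over 3200 bp.

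The exons and introns of the protein-coding transcripts fell into 3 groups by their levels, apart from exon 1. Exons 2 and 3 and intron 2, in the P2 island, had no methylated call. Exon 2 had 0 of 252 calls in WT and 0 of 305 in TCKO, and intron 2 had 0 of 156 in each. The parts next to the island, intron 3, exon 4 and intron 4, had 31.5%, 45.1% and 40.6% in WT and 51.3%, 87.5% and 80.2% in TCKO. Intron 4 alone went from 422 of 1040 calls to 737 of 919, a difference of 39.6 points (35.6 to 43.4, Fisher exact test, adjusted p = 5.28e-71 over all introns, of which 31.4% were called higher). Exon 4, which codes for part of the Runt domain, went from 23 of 51 calls to 49 of 56, 42.4 points apart (24.9 to 56.7, Fisher exact test, adjusted p = 0.000147). The median intron of the genome differed by 5.41 points and the median exon by 3.37 points.

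The long introns formed the third group. Intron 5, which spans 58.499 kb, went from 61.0% to 83.7% (22.6 points), intron 1 with 77.52 kb from 62.9% to 79.4% (16.5 points), intron 7 from 65.2% to 81.8% (16.6 points) and intron 6 from 74.7% to 89.0% (14.3 points), and all 4 passed the Fisher exact test with adjusted p-values from 6.23e-199 to 5.52e-34. These 4 introns had 2096 to 11348 calls per library, so their p-values follow from depth as well as from the differences. The share of 31.4% called higher is over introns of any depth from 20 calls. Exon 9, the last, went from 77.4% to 90.8% (13.4 points, Fisher exact test, adjusted p = 5.89e-15). Exon 5 had 63.6% and 95%, which did not pass with 22 and 20 calls (Fisher exact test, adjusted p = 0.166). Exon 7 (80.9% and 89.0%) and intron 8 (70.6% and 74.9%) did not pass either (Fisher exact test, adjusted p = 0.463 and 0.573). Exons 3 and 6 had too few calls to be tested and exon 8 holds no CG.

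**Figure D3:**
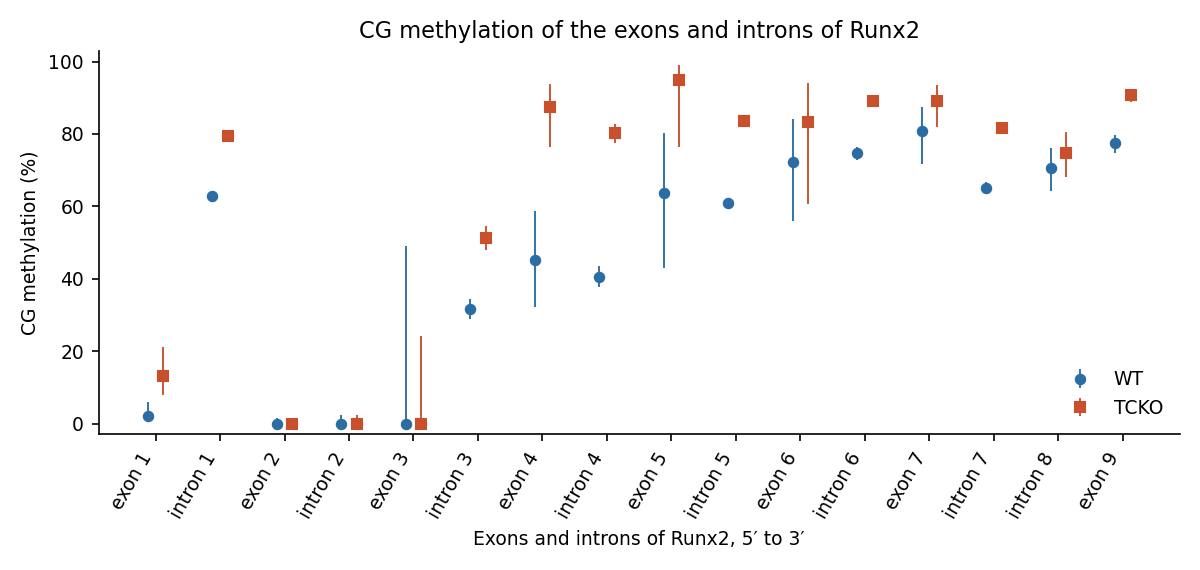
CG methylation (%, y axis) of each exon and intron of Runx2 with a CG call, from 5′ to 3′ (x axis), in the WT (circles) and TCKO (squares) libraries, with 95% Wilson intervals as bars. Both libraries lie at 0% from exon 2 to exon 3, and the widest gaps are at exon 4, with wide intervals from 51 and 56 calls, and at intron 4, with narrow ones.

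For calls of single bins, a bin needed at least 4 CG cytosines, a mean of at least 4 calls per cytosine in each library, a Fisher exact test with an adjusted p below 0.05 over all testable bins of the genome, and a difference above 40 points. Of 738 testable bins in the locus, 97 (13.1%) were called higher in TCKO, against a background of 2.86% of 2534629 bins in the genome. None was called lower, at an adjusted or an unadjusted p, against 0.035% in the genome, and the lowest difference of a testable bin was -20.8 points. The median testable bin of the locus had 79.6% in WT and 88.5% in TCKO, while the genome's had 76.7% and 82.7%. TCKO was higher in 602 of the 738 bins (81.6%), against 68.1% in the genome.

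The called bins were not spread evenly. Intron 4 had 8 of 11 testable bins called (72.7%), intron 3 had 3 of 8 (37.5%) and intron 5 had 20 of 90 (22.2%), so that introns 3 to 5 together had 31 of 109 (28.4%). Intron 7 followed with 8 of 41 (19.5%), the upstream flank with 17 of 129 (13.2%), intron 1 with 13 of 128 (10.2%), the downstream flank with 14 of 142 (9.86%) and the 3′ stretch with 13 of 146 (8.90%). Intron 6 had 0 of 29, and of the 13 testable exon bins 1, in exon 9, was called (25.9% in WT and 72.4% in TCKO). Only 9 of the 37 bins in the low stretch around P2 were testable, the rest having fewer than 4 CG cytosines or a lower mean depth. Once adjacent called bins were joined there were 76 regions, 58 of them of a single bin, and the longest spanned 600 bp. The called bins had 4 to 18 CG cytosines (median 6), a median level of 26.3% in WT and 82.7% in TCKO, and TCKO levels of at least 47.2%.

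**Figure D4:**
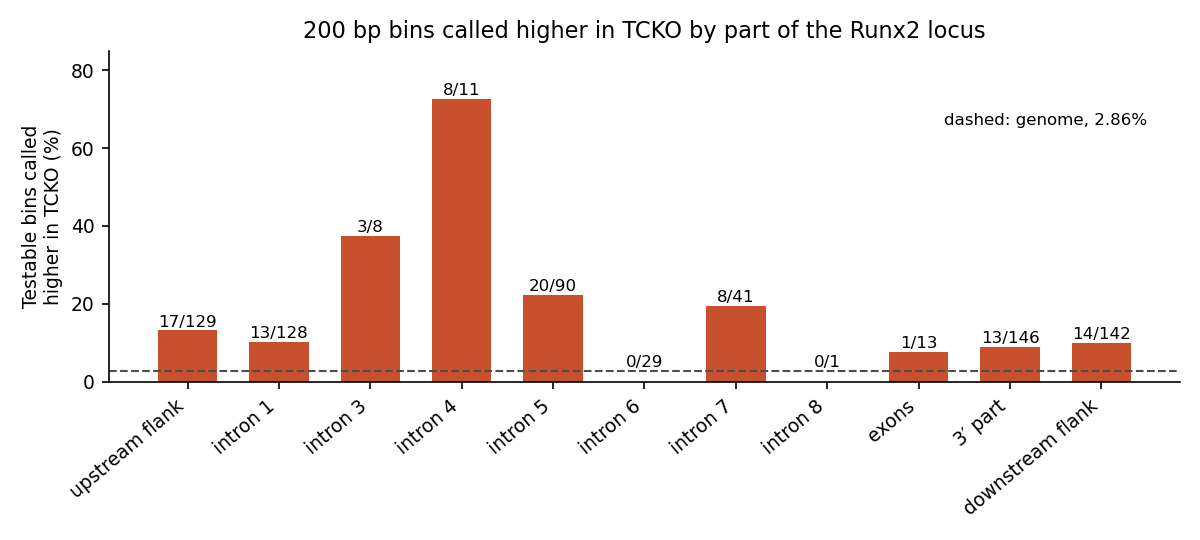
Share of testable 200 bp bins called higher in TCKO (%, y axis) in each part of the Runx2 locus from 5′ to 3′, with the exons pooled (x axis). The numbers over the bars are called and testable bins, and the dashed line is the share over the genome, 2.86%. Intron 4 stands highest with 8 of 11, and introns 6 and 8 had none.

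The 15 called bins with the largest differences lay in introns 1, 4, 5 and 7 and in both flanks. After the bin beside P1, the next 2 were in intron 5. The bin centred 58.7 kb downstream of P2 had 1 of 54 calls methylated in WT and 35 of 41 in TCKO (1.85% and 85.4%, Fisher exact test, adjusted p = 1.06e-15), and all 5 of its CGs were higher in TCKO. It holds the Runt string, in the sequence given for intron 5. The bin centred 26.9 kb downstream of P2, next to the start of the antisense gene Runx2os2, had 0 of 32 calls in WT and 47 of 57 in TCKO (0% and 82.5%, Fisher exact test, adjusted p = 4.75e-13). Its 4 CGs were at 66.7% to 93.3% in TCKO. The CGs of a bin share reads, and these bins were chosen by their difference, so single CGs are no separate check. Of the 15, the bin centred 10.1 kb downstream of P1 in intron 1 had the most calls, spread over 18 CG cytosines. It had 20 of 176 calls methylated in WT and 156 of 172 in TCKO (11.4% and 90.7%, Fisher exact test, adjusted p = 1.16e-50). It overlaps a repeat of CT and CG letters. In WT the CGs within the repeat ranged from 3.85% to 11.5%, over 23 to 26 calls each. The CGs of the bin outside the repeat ranged from 11.1% to 55.6%, over 7 to 9 calls each. The neighbour of this bin, chr17:44805001-44805200, went from 20% to 90.3%.

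The others among these 15 also had a low WT and a high TCKO level, which follows from their choice by the largest differences. In intron 1, the bin centred 4.3 kb downstream of P1 went from 14.8% to 82.7% and the one 9.45 kb upstream of P2 from 7.14% to 83.8%. In intron 4, 14.1 kb downstream of P2, 11 of 73 calls (15.1%) in WT stood against 51 of 62 (82.3%) in TCKO. In intron 5, bins 52.5 kb and 68.7 kb downstream of P2 went from 12% to 84.4% and from 23.7% to 100%, and in intron 7 a bin 122 kb downstream of P2 went from 20% to 89.1%. Upstream of the gene, bins 51.9 kb and 57.1 kb from P1, both inside Supt3, went from 8.75% to 84.2% and from 14.9% to 92.2%. Downstream of the gene, chr17:44418801-44419000 and chr17:44421201-44421400 went from 2.44% to 77.3% and from 4.35% to 78.9%. Adjusted p-values of these 10 bins ran from 4.22e-22 to 3.54e-05 by the Fisher exact test.

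Bins with at most 30% methylation in WT were mapped to show which places of the locus are low in cells with intact Tet genes. Since the WT level chose them, only their TCKO level can be compared. Of the 1532 bins with at least 10 calls in each library, 197 (12.9%) were low in WT, against 7.21% in the genome, and they joined into 84 stretches. In TCKO these 197 bins had a pooled level of 54.7% (53.6% to 55.8%) and a median of 66.7%, whereas all WT-low bins of the genome had a pooled level of 34.7% and a median of 33.3%. In TCKO 129 of them (65.5%) exceeded 50%, against 33.9% in the genome, and 47 (23.9%) stayed at or below 30%, against 46.2%. Among the 151 with fewer than 10 CG cytosines the median TCKO level was 68.4%, against 42.9% in the genome. Of the 46 with more, 25 (54.3%) stayed low, against 75.2%. Bins were also chosen by their WT level on the plus strand, with at least 10 minus-strand calls in each library. The levels of the minus strand, which did not enter the choice, were 25.7% in WT and 63.3% in TCKO over 66 bins. In the genome they were 18.6% and 37.6%.

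Of the 47 bins that stayed low, 25 were in the stretch around P2, 6 at the start of Supt3, 4 at P1 and 12 elsewhere. The P2 stretch, the longest, spans 7400 bp (chr17:44731801-44739200), holds 618 CG cytosines, and had 3.98% in WT and 11.2% in TCKO. The WT-low bins outside it had a pooled TCKO level of 65.9%. The stretch at P1, chr17:44813001-44815600, spans 2600 bp and had 9.69% (53 of 547 calls) and 39.2% (164 of 418 calls). That at the start of Supt3, a gene of a coactivator complex that begins within intron 1 of Runx2 and runs the opposite way across P1, spans 1800 bp and had 4.79% (14 of 292 calls) and 22.4% (41 of 183 calls), and its called bin at the downstream edge for Supt3 went from 17% to 66.7%.

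Of the 84 stretches, 36 spanned 400 bp or more, 26 of them in the gene, 3 upstream and 7 downstream. All 36 were higher in TCKO, 30 exceeded 50% there, 27 held a called bin and 2, those of P2 and Supt3, stayed below 30%. Since a low WT level chose the stretches, a higher TCKO level and a called bin are favoured by that choice. The matching shares over stretches of the genome are not given here. Their WT levels ran from 2.94% to 28.3% and their median TCKO level was 69.5%. In intron 1, chr17:44804601-44805800 had 14.1% in WT and 84.0% in TCKO, chr17:44810401-44811200 had 10.8% and 68.2%, and chr17:44770801-44771200 had 16.9% and 76.2%. Between Supt3 and P2, chr17:44768201-44769000 had 2.94% and 36.8%, the third lowest TCKO level of the longer stretches after P2 and Supt3, while chr17:44767001-44767600 had 26.5% and 78.9%. In intron 3 the stretch beyond the P2 island, chr17:44730001-44731600, had 17.4% and 58.8%, and chr17:44725001-44725400 had 23.1% and 86.2%. The 3 of intron 4 had 28.3%, 7.14% and 16.7% in WT and 73.5%, 72.5% and 48.8% in TCKO.

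Intron 5 held 4 of these longer stretches. The one at the start of Runx2os2, chr17:44709601-44710800, went from 4 of 84 calls (4.76%) to 91 of 131 (69.5%). A pair 51.1 kb and 53.1 kb downstream of P2 had 7.32% and 47.6%, and 13.1% and 69.9%, the latter with 4 called bins. The fourth, chr17:44677601-44678400, had 6.45% and 76.5%. In intron 7, chr17:44617601-44619000 had 6.69% and 50.2%, chr17:44613801-44614400 had 16.8% and 92.4%, the highest TCKO level of the 36, and chr17:44623601-44624000 had 25% and 62.5%. The 6 of the 3′ stretch ran from 16.7% to 27.1% in WT and from 50.9% to 89.3% in TCKO. The 3 upstream had 22%, 17% and 16.3% in WT and 68.1%, 91.1% and 79.0% in TCKO, and the 7 downstream ran from 8.88% to 23.3% and from 53.6% to 74.4%. Of the 48 stretches of a single bin, 1 was lower in TCKO, with 7 of 28 calls in WT and 1 of 16 in TCKO, in intron 1 at 26.1 kb downstream of P1.

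**Figure D5:**
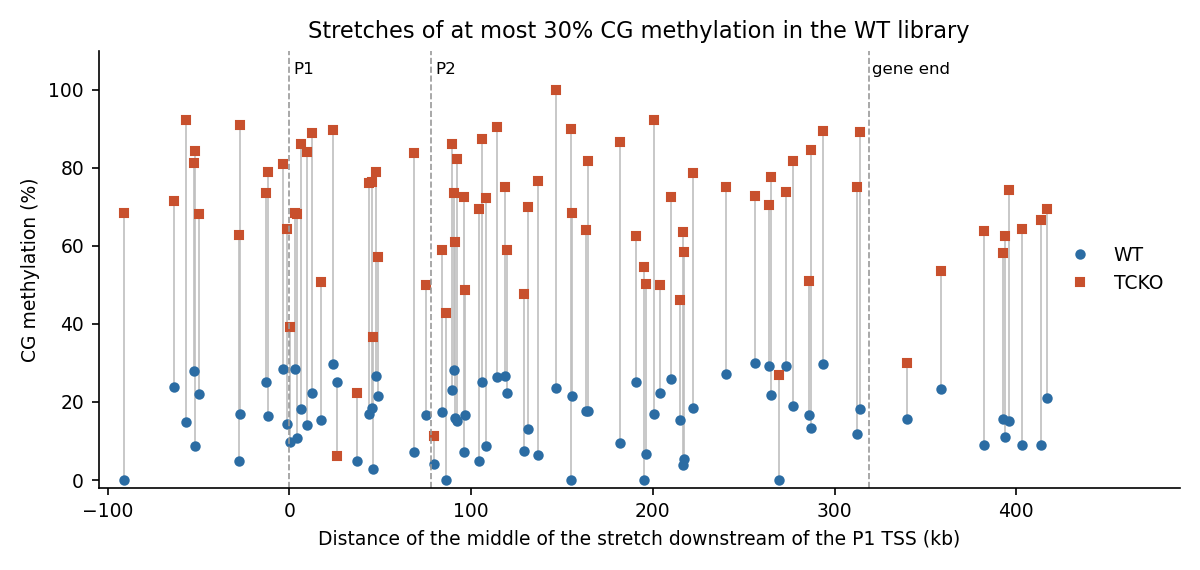
CG methylation (%, y axis) of the 84 stretches with at most 30% in WT, by the distance of their middle from the P1 TSS in kb (x axis, downstream is positive). Circles are the WT library, squares the TCKO library, and a line joins the levels of a stretch. The WT level chose the stretches, so the position of the circles follows from the choice. Of the squares, 71 lie above 50%, and those of P2 at 11.2% and of the Supt3 start at 22.4% are among the 5 at or below 30%.

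Other genes of the annotation lie in the locus. Runx2os1 starts inside exon 2 of Runx2, antisense to it, and the 4 kb around its start had 0 of 999 calls methylated in WT and 6 of 1057 in TCKO (0.568%). Around the start of Runx2os2 in intron 5 the level was 51.5% in WT and 82.7% in TCKO (difference interval 24.9 to 37.1 points), and around that of Runx2os3 in the 3′ stretch it was 84.8% and 89.8% (interval -0.107 to 9.97 points). At the start of Supt3 it was 40.5% and 56.7% (interval 9.65 to 22.6 points). The 5S rRNA-like gene n-R5s27 and the processed pseudogene AC154500.1 also overlap the locus.

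Exact strings of 4 motif families were counted in the called bins. The Runt string TGTGGTT was in 6 of the 97 called bins (6.19%), in 21 of the other 641 testable bins of the locus (3.28%) and in 5.00% of the testable bins of the genome. The bZIP string TGAGTCA was in 5 (5.15%), in 3.59% of the others and in 3.01% of the genome's. The TEAD string CATTCCA was in 1 called bin and the bHLH string CAGCTG in 5, against 3.19% and 6.25% of the genome's bins. Of the 197 WT-low bins, 12 held the Runt string (6.09%) and 20 the bZIP string (10.2%). The TEAD string was in 6 of them (3.05%) and the bHLH string in 9 (4.57%). The shares over WT-low bins of the genome, a set chosen otherwise than the testable bins, are not given here. Strings were sought on both strands within a bin, none of the 4 contains another, and counts this small allow no statement on a difference.

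The RUNX family and the partners and targets of RUNX2 give the setting of these values. With 100 kb on either side, Runx1 had 48 of 476 testable bins called higher in TCKO (10.1%) and Runx3 14 of 211 (6.64%), against the 97 of 738 of Runx2. Their most upstream TSS windows went from 41.1% to 82.0% (Runx1) and from 47.1% to 81.5% (Runx3), so that the P1 window of Runx2 was lower than both in either library. Of 12 regulators and partners of RUNX2, 7 rose at the TSS window, 2 fell and 3 did not pass, beside 41.7% of all TSS windows called higher and 2.65% lower, with a median difference of 6.22 points against 5.19 over all windows. Cbfb, the partner that stabilises RUNX2 on DNA, went from 15.3% to 37.7% (Fisher exact test, adjusted p = 2.59e-18). Msx2, a homeobox factor of the skull, went from 27.0% to 15.4% (Fisher exact test, adjusted p = 3.81e-05).

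Of 9 target genes of RUNX2, 5 rose at the TSS window, none fell and the rest did not pass. The share that rose is near the 41.7% of all TSS windows, and the median difference was 13.5 points against 5.19 over all windows. The largest differences were at genes of bone matrix proteins, Ibsp (60.8% to 82.6%), Spp1 (45.2% to 64.5%) and Col1a1 (3.38% to 19.6%). Tnfrsf11b, the gene of the decoy receptor osteoprotegerin, had 57.1% and 51.9% and did not pass (Fisher exact test, adjusted p = 0.33). The WT levels at the 6 osteoblast markers ran from 3.38% to 76.8%. Those at 4 blood markers ran from 65.7% to 78.9% in WT and from 62.5% to 85.4% in TCKO, and 2 of the 4 rose. Of 3 endothelial markers, at 40.6% to 77.6% in WT, 2 rose, and of 2 muscle markers, at 34.1% to 67%, none did. Of the 6 osteoblast markers 4 rose, and these counts are too small to be read against the 41.7% of all windows. The part of other cell types in the levels of the Runx2 locus was not tested.

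Among 2483 genes longer than 100 kb, those nearest to Runx2 in the levels of gene body and most upstream TSS window in both libraries were Sncaip, Apba2, Cald1, Colgalt2 and Dtd1, at distances of 6.12 to 9.39 points over these 4 values. Cald1 had 65.1% and 84.0% in its body and 10.7% and 42.1% at its TSS window, against 64.9% and 81.3%, and 16.3% and 46.4%, in Runx2.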

How the data were processed

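WGBS libraries of WT and TCKO primary osteoblasts were used, 1 per genotype, grouped by the genotype in the labels. The files, as deposited, list the counts of methylated (C) calls and of all (C + T) calls at each CG cytosine, with no normalization. The authors had made them with BSMAP 2.74 on GRCm38, from reads that mapped to a single place. CASAVA is also named in the submitters' processing notes. Removal of duplicate reads is not given in the sources used here.

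The WT library had 261062118 calls on the CG cytosines of the nuclear chromosomes (83.7% of those in the reference) and the TCKO library 223581206 (81.9%). Counts were pooled by region and compared by Fisher's exact test (2-sided), and p-values were adjusted by Benjamini-Hochberg across all regions of a kind in the genome (200 bp bins, TSS windows, exons, introns or gene bodies with at least 20 calls in each library, or 100 for gene bodies). P1 is the most upstream TSS of the protein-coding transcripts and P2 the first over 10 kb from it that begins another first coding exon. Exons are the union over protein-coding transcripts. WT-low bins were joined across at most 2 bins without 10 calls in each library.

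The locus, lists and rules were chosen with earlier results of these data known. Text names the promoters, exons, introns and overlapping genes, the 15 called bins with the largest difference, WT-low stretches of at least 400 bp, at most 8 listed genes and the 5 most similar genes. Some listed items are not reported here. Alternatives changed the depth minimum, threshold, bin offset, window, strand, averaging and deepest cytosines. Code was tested on simulated data. Python 3.11.15, numpy 2.4.6, scipy 1.17.1, pandas 2.3.3, numba 0.67.0 and matplotlib 3.10.9 were used.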

Additional observations from a re-analysis of the deposited data

How the results depend on the processing

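Of 52 values from alternatives for 9 results, 43 kept their direction and their side of the threshold, stayed within the main interval where there was no test, or stayed within 1.5 times the count. No call changed direction. The called bins of the Runx2 locus fell to 27 with a mean of at least 10 calls per cytosine (17% of testable bins, against 1.91% in the genome) and to 49 at a difference above 50 points (6.64% against 1.53%), and rose to 171 with at least 10 calls per bin as the only minimum (11.2% against 2.36%). These follow from fewer or more bins being tested or from the higher threshold. No bin was called lower under any alternative. The mean of sites with at least 4 calls gave 17.3 points for the gene body. It put the P2 window at -0.364 points, from only 64 of the 490 CG cytosines of that window. The sign at P2 is thus not fixed, and the P2 window was not called under any alternative. The P1 window ran from 16.9 points (1 kb on either side) to 30.8 and was called under each test. The gene body ran from 14.7 points on the minus strand to 17.9 on the plus strand. A WT limit of 50% gave 139 low stretches and a TCKO level of 64.4%, and a limit of 20% a TCKO level of 48.6%. Choosing bins on the plus strand gave 44 stretches and 63.3% on the minus strand. No paired analysis was possible because each genotype had 1 library. Depth limits single bins at P2 and at the start of Supt3, and the variation between animals is not known.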
